A study of Mus musculus with 6 samples.

Results

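Genes of mitochondrial fatty acid oxidation were compared in RNA-seq of neural stem cells (NSCs) labelled Setd5+/- and wild type (WT), grown at 21% O2. The group holds the carnitine shuttle (Cpt1a, Cpt1c, Cpt2, Slc25a20), the acyl-CoA dehydrogenases Acadm, Acadl and Acadvl, and the hydratase, dehydrogenase and thiolase steps (Hadha, Hadhb, Hadh). They were taken by gene symbol, in a choice made with earlier results of these data known, and all 10 were found among 52438 genes with values. All 10 also passed the filter on low values, a mean of at least 10 normalized counts over the 6 samples, which left 16266 genes. The cells were primary NSCs from embryonic mouse cortex, kept in adhesion in medium with EGF and bFGF. Both genotypes were grown in the same medium, and the mutant cells carried a heterozygous Setd5 mutation made with CRISPR-Cas9. The labels list 3 samples of each genotype. The cells were grown at this oxygen level to see whether ambient air uncovers a defect of mitochondria in the mutant, and cells kept at low oxygen were not analysed here.

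Fatty acids are first joined to coenzyme A, and long chains then cross the inner mitochondrial membrane as carnitine esters. In the matrix each turn of the oxidation spiral removes an acetyl unit by dehydrogenation, hydration, a further dehydrogenation and thiolysis, and the electrons pass to the respiratory chain. Neurons use little of this route, while astrocytes and neural stem cells are known to use it, and inhibition of its entry step is known to alter the behaviour of neural stem cells.

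Before any comparison, the samples of a genotype were compared with each other. Their reads differed by no more than sampling allows, with a variance over the mean of 1.95 in WT and 1.92 in Setd5+/- per read. Per read pair this was 0.974 and 0.960. Between the first WT sample and the first Setd5+/- sample it was 64.1 per read. All 3 columns of a genotype also carry the same index and lane in their names. The 3 columns not named wild type carry the code of the same clone and no genotype. They were taken as the Setd5+/- samples because no other columns remained. The samples of a genotype were therefore counted as parts of 1 library, so that n = 1 per genotype. The intervals below are 95% counting intervals of the difference between these libraries, and nothing here measures how cultures or lines of a genotype vary. Genotype, mutant line, culture, library and lane cannot be told apart. Fewer cells expressing a gene and less RNA per cell cannot be told apart either. Reads on genes ranged from 9995980 to 10004948 in WT and from 7143309 to 7146147 in Setd5+/-. Setd5 itself had 2498, 2749 and 2780.1 normalized counts in WT and 2151, 1989.9 and 2055 in Setd5+/-. It was lower in the mutant library (log2 −0.37, 95% counting interval −0.44 to −0.31), and whether these reads lie in the edited part was not tested.

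The labelled cell type was checked against marker lists. The 10 NSC markers were all detected in both libraries, with Nes at a mean of 2378 and 1951 normalized counts and Sox2 at 3119 and 2732 in WT and Setd5+/-. Their summed level ranged from 76212 to 76375 in WT and from 60929 to 61704 in Setd5+/-, and 3 of the 10 were lower (Fabp7 at log2 −1.65, Hes1 at −1.09 and Prom1 at −2.92) and 2 higher (Notch1 at 1.61 and Vim at 0.60) past 1.5-fold. The 8 oligodendrocyte lineage markers summed to between 40997 and 41788 in WT and between 23688 and 24533 in Setd5+/-, which came mainly from Olig1 and Olig2, also expressed in cultured NSCs. Of 7 of these that were tested 4 were lower and 1 higher past 1.5-fold, where 14.8% and 18.8% of all genes tested were. Sox10 fell the most, with means of 298 and 1.59 normalized counts in WT and Setd5+/- (log2 −6.85), and Cspg4 was the higher one (log2 0.91). The 6 astrocyte markers summed to between 5422 and 5550.1 in WT and between 2422 and 2661 in Setd5+/-. Of 5 astrocyte markers tested 2 were lower and 3 higher. Slc1a2 fell the most (log2 −1.93), and Gfap rose the most, with means of 17.1 and 263 normalized counts in WT and Setd5+/- (log2 3.87). The 9 neuron markers summed to between 11069 and 11519 in WT and between 12643 and 12769 in Setd5+/-. Most of this came from Map2, and Neurod1 was at 0. Of 6 tested 4 were lower, namely Dcx (log2 −3.20), Gad1 (−2.95), Snap25 (−1.61) and Syn1 (−1.04), and none was higher. Mesenchymal markers summed to at most 19.1, microglia markers to at most 119 and endothelial markers to at most 26.2 in any sample, with Lum, Twist1, Cx3cr1 and Ptprc at 0, which allows up to 3 reads each in a sample (counting error only). Only Csf1r and Kdr of these lists were tested. Csf1r made most of the microglia sum and was lower past 1.5-fold, with means of 98.0 and 53.6 in WT and Setd5+/- (log2 −0.86). The endothelial marker Kdr was higher, with means of 6.35 and 17.9 (log2 1.36). These lists moved together with the difference between the libraries, and their part in the results below was not tested.

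The mutant library held less RNA of most of the 10 genes. Log2 ratios of Setd5+/- over WT were below 0 in 8 of the 10 genes, with a median of −0.34 against −0.02 over all genes tested, of which 51.1% were below 0. The counting interval lay below 0 for 7 genes and above 0 for 1, where all genes tested gave 32.8% and 32.6%. The 3 Setd5+/- values all lay below the 3 WT values in 8 genes and above them in 1, against a background of 32.9% and 32.4%. Past 1.5-fold there were 2 lower genes, Acadl and Acadvl, and 1 higher gene, Cpt1c, where 14.8% of all genes tested were lower and 18.8% higher by this rule. That background split depends on the scaling, with 2400 lower and 3061 higher genes here and 3061 lower and 2574 higher with upper quartile scaling, by which 3 members were lower (with Slc25a20 added) and 1 higher. A test across all genes with limma, which compares the reads of these 2 libraries and not the genotypes, called 7 of the 10 lower and 1 higher at an adjusted p of 0.05, against 30.9% and 30.3% of all genes. Thus most members were lower, but by less than the fold used for calls. The 2 lower genes past it encode acyl-CoA dehydrogenases. Cpt1c, the higher one, is in the list by its name and family, as described below.

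**Figure D1:**
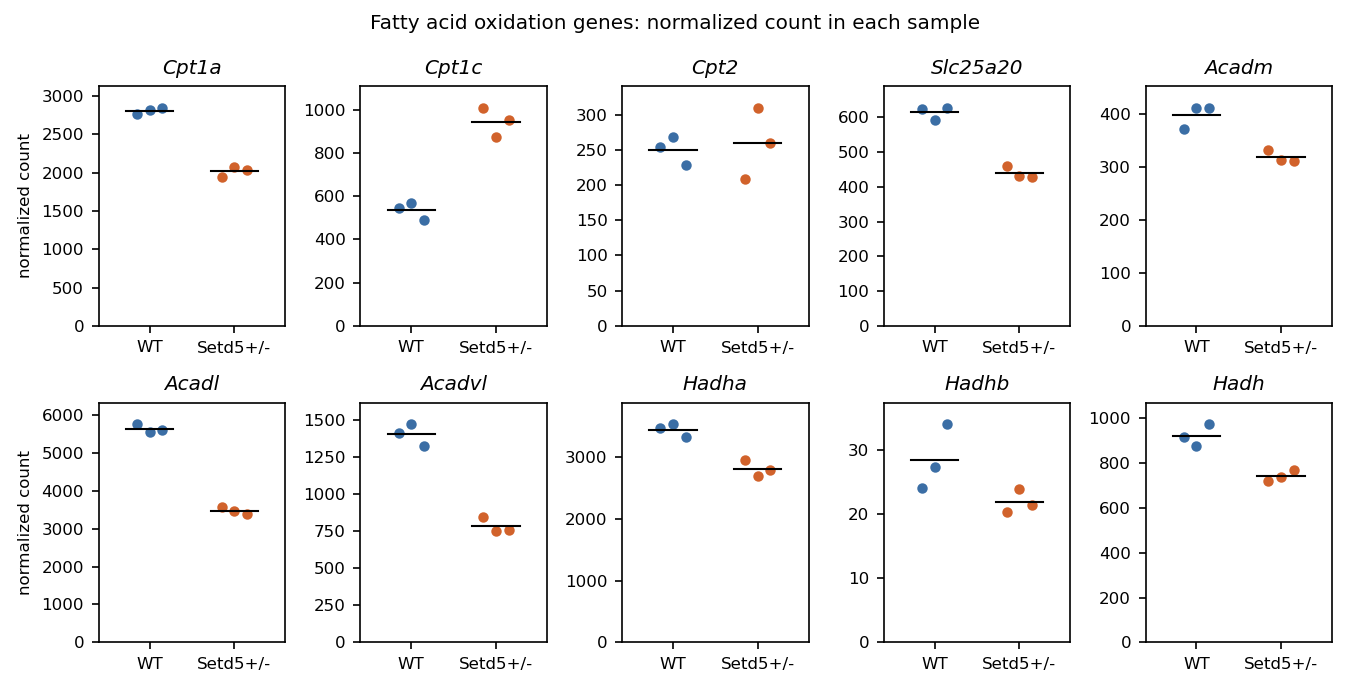
Normalized counts (y axis, from 0) of the 10 fatty acid oxidation genes in the 3 WT samples (blue) and the 3 Setd5+/- samples (orange), with the mean as a black line; each panel has its own scale and the samples of a genotype are parts of 1 library. In 8 panels all orange points lie below the blue ones, in Cpt1c all lie above, and in Cpt2 they overlap.

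**Figure D2:**
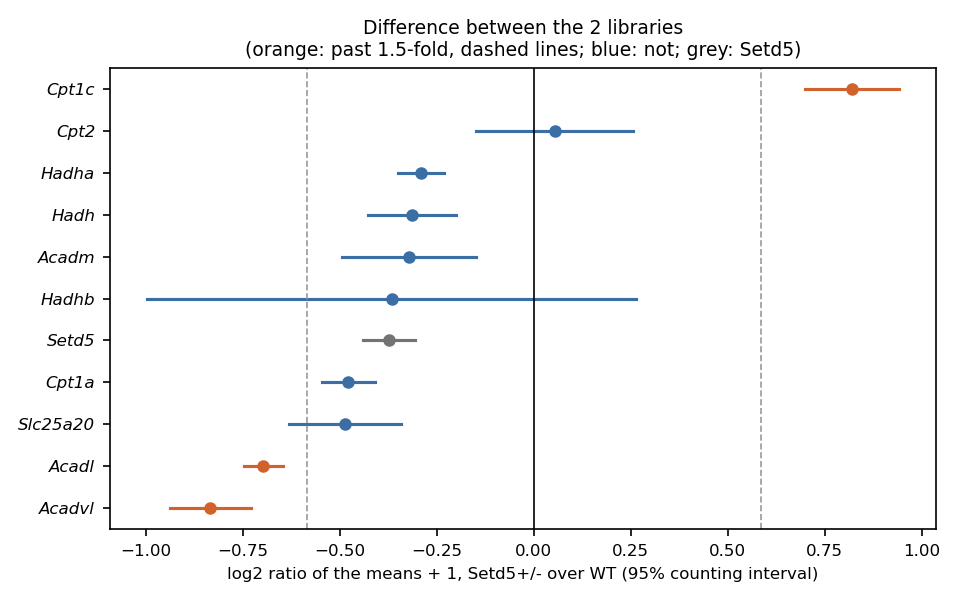
Log2 ratio of the mean normalized counts + 1, Setd5+/- over WT (x axis), with 95% counting intervals, for the 10 genes and Setd5 (grey). Acadl and Acadvl lie to the left of the lower dashed line at 1.5-fold and Cpt1c to the right of the upper one, and the wide interval is that of Hadhb, with few reads.

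Genes of the Cpt1 family, which holds the enzyme of the entry step, showed opposite differences. Cpt1a encodes the isoform of carnitine palmitoyltransferase of the outer mitochondrial membrane that sets the rate of long-chain entry and is inhibited by malonyl-CoA. It lies on chr19:3322334-3385733 on the plus strand of GRCm38. It had 2766, 2823 and 2848 normalized counts in WT and 1951, 2074 and 2033 in Setd5+/-. The mutant values were all lower, by 28.2% in the mean (log2 −0.48, 95% counting interval −0.54 to −0.41), which is short of 1.5-fold.

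Cpt1c encodes the brain isoform, which is known from the endoplasmic reticulum of neurons, binds malonyl-CoA and has little transferase activity, so that its place in a list of mitochondrial enzymes rests on its name and family. It lies on chr7:44959372-44974851 on the minus strand. It had 545, 569 and 490.3 normalized counts in WT and 1008, 872 and 954 in Setd5+/-. All mutant values were above all WT values, with a 1.77-fold higher mean (log2 0.82, 95% counting interval 0.70 to 0.94), and 13.5% of all genes tested had a log2 ratio at least as high. An antisense gene on the plus strand, 6530437J22Rik, shares 366 exonic bases with it, which is 6.53% of the exonic bases of Cpt1c. That gene had a mean of 68.2 normalized counts in WT and 158 in Setd5+/- (log2 1.204, 95% counting interval 0.89 to 1.52), and as the library kit does not mark strand the reads of the shared bases cannot be told apart.

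Set against each other per length, the levels of the isoforms lay closer together in the mutant library. The ratio of Cpt1c to Cpt1a, each as normalized counts per kb of transcript, was 0.304, 0.312 and 0.266 in WT and 0.799, 0.649 and 0.725 in Setd5+/-. The ratio was 2.46-fold higher in the mutant library (log2 change 1.299, 95% counting interval 1.16 to 1.44). Per kb, Cpt1a stayed above Cpt1c in every sample. The muscle isoform Cpt1b was far below both, at 67.2, 72.0 and 68.7 normalized counts in WT and 96.5, 132 and 142 in Setd5+/- (log2 0.82, 95% counting interval 0.49 to 1.15).

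The 250 bases before the annotated start of Cpt1c are shown because it is the only member that was higher past 1.5-fold. They are given on the strand of the gene with 2 short motifs in capitals, the GC box (GGGCGG) and the nuclear receptor half-site (AGGTCA), on either strand. Sequences are from RefSeq for GRCm38.p6, where all 10 genes were matched.
Cpt1c, chr7:44974852-44975101, minus strand: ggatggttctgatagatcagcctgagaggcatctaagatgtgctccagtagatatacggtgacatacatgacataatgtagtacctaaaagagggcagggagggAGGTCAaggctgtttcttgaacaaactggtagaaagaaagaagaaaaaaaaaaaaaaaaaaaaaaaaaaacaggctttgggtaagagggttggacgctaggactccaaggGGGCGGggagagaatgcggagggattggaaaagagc

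The inner membrane part of the shuttle was split. Slc25a20 encodes the carrier that exchanges acylcarnitine for free carnitine across the inner membrane. It lies on chr9:108662088-108684641 on the plus strand. Its normalized counts were 624, 594 and 628 in WT and 459, 431 and 428 in Setd5+/-, a mean lower by 28.6% (log2 −0.49, 95% counting interval −0.63 to −0.34) with no overlap. Among the settings tried, it was past 1.5-fold only with upper quartile scaling (log2 −0.59).

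Cpt2 encodes the matrix-side transferase that returns the acyl group to coenzyme A. It lies on chr4:107903981-107923610 on the minus strand. It had 254, 268 and 228 normalized counts in WT and 209, 309.6 and 259.7 in Setd5+/-. The groups overlapped, with the mutant library holding both the lowest and the highest value (log2 0.05, 95% counting interval −0.15 to 0.25). The direction changed with upper quartile scaling (log2 −0.052), with the third WT sample left out (−0.0089) and with the second Setd5+/- sample left out (−0.093), so no difference was detectable for Cpt2 at this depth. The log2 ratio of Cpt2 was above that of Cpt1a by 0.53 (95% counting interval 0.32 to 0.74) and above that of Slc25a20 by 0.54 (0.29 to 0.79).

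The acyl-CoA dehydrogenases, flavoproteins that make the first double bond, held both genes that were lower past 1.5-fold. Acadvl encodes the membrane-bound enzyme for very long chains and lies on chr11:70010183-70015411 on the minus strand. It had 1415, 1472 and 1324 normalized counts in WT and 845, 755 and 761 in Setd5+/-. No value overlapped and the mean was lower by 43.9% (log2 −0.83, 95% counting interval −0.94 to −0.73), the lowest log2 ratio of the 10 genes. Of all genes tested 8.66% were at or below it. Long transcripts of Dvl2, a Wnt pathway gene on the opposite strand, share 1151 exonic bases with Acadvl, which is 42.9% of its exonic bases, and Dvl2 was also lower (1087 and 780.3 normalized counts in the mean, log2 −0.48, 95% counting interval −0.59 to −0.37). Reads of the shared bases cannot be told apart, and their part in the value of Acadvl was not tested.

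Acadl encodes the long-chain enzyme of the matrix and lies on chr1:66830839-66863277 on the minus strand. It had 5749, 5534 and 5598 normalized counts in WT and 3565, 3465 and 3381 in Setd5+/-, lower by 38.3% in the mean (log2 −0.70, 95% counting interval −0.75 to −0.65). The values of the libraries were far apart compared with the spread within each. Acadl stood against its chromosome, since the 1044 tested genes of chromosome 1 had a median log2 ratio of 0.53 and the genes outside it −0.04. On chromosome 1 only 56 genes (5.36%) had a log2 ratio at or below that of Acadl, whereas 12.3% of the tested genes of the other chromosomes did.

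Acadm encodes the medium-chain enzyme and lies on chr3:153922357-153944632 on the minus strand. It had 372, 411 and 412 normalized counts in WT and 333, 313 and 311 in Setd5+/-, with no overlap (log2 −0.32, 95% counting interval −0.49 to −0.15). An intronless copy, Gm5131 on chromosome 8, is 89.7% identical to Acadm over the aligned part and had means of 286 and 249.8 normalized counts, and the longest run of identical bases was 82. The longer-chain dehydrogenases were lower by more than Acadm, in the reads counted on Acadm itself. The log2 ratio of Acadl was below that of Acadm by 0.38 (interval of the Acadm value minus the Acadl value 0.20 to 0.56), and Acadvl was below Acadm by 0.51 (0.31 to 0.71). Acadvl and Acadl differed less, by 0.14 (0.02 to 0.25).

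The bases before the starts of Acadl and Acadvl are shown because these were the called lower members, with the same motifs in capitals.
Acadl, chr1:66863310-66863559, minus strand: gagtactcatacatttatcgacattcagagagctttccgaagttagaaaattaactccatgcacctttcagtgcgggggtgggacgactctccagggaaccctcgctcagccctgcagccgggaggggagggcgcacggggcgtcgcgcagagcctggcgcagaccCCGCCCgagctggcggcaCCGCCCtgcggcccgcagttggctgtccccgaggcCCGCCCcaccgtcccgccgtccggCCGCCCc
Acadvl, chr11:70015429-70015678, minus strand: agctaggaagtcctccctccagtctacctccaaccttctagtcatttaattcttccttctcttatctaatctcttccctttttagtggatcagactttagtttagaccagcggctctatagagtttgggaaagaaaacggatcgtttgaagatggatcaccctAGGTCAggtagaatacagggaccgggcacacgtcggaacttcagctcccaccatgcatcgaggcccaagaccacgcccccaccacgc
The windows had little in common. That of Acadl held 4 GC boxes and no half-site and was 68.0% G and C, that of Acadvl held no GC box and 1 half-site and was 49.6% G and C, and that of Cpt1c held 1 of each and was 44.0% G and C. In windows of 300 bases, which add 50 bases after the start, a GC box was found for 8 of the 10 genes and in 35.9% of 32544 promoter windows. AGGTCA, which overlaps the last letters of TCAAGGTCA and is the unit of a direct repeat spaced by 1 base, was found for 4 genes (Cpt1a, Cpt1c, Acadm and Acadvl) and in 16.2% of windows. CCAAT was found for 3 genes (Cpt1a, Cpt1c and Hadh) and in 37.4% of windows. The letters TCAAGGTCA, the element of oestrogen-related receptors, were found for none of the 10 and in 0.412% of windows. The direct repeat of AGGTCA spaced by 1 base was found for none and in 0.0399%, the CRE TGACGTCA for none and in 1.80%, and the E-box CACGTG for none and in 7.17%. None of the motifs searched was found in the windows of both Acadl and Acadvl.

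The trifunctional protein of the inner membrane carries the last 3 steps for long chains, with Hadha as its alpha subunit (hydratase and hydroxyacyl-CoA dehydrogenase) and Hadhb as its beta subunit (thiolase). Their genes lie head to head, Hadha on chr5:30118304-30155162 on the minus strand and Hadhb on chr5:30155248-30184593 on the plus strand. The 85 bases between the annotated starts are shown because a single short stretch borders both subunits. They are 69.4% G and C and hold 2 GC boxes, in capitals.
Between Hadha and Hadhb, chr5:30155163-30155247, plus strand: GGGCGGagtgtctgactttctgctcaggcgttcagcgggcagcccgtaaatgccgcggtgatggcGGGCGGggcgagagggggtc

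Hadha had 3458, 3524 and 3322 normalized counts in WT and 2949.8, 2689 and 2786 in Setd5+/-. All mutant values were lower, with a mean lower by 18.2% (log2 −0.29, 95% counting interval −0.35 to −0.23), the smallest difference among the 7 genes whose interval lay below 0. Hadha shares 75 exonic bases, 0.859% of its own, with Garem2 on the opposite strand, which was lower too (log2 −0.98, 95% counting interval −1.06 to −0.91).

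Hadhb had only 24.0, 27.3 and 34.0 normalized counts in WT and 20.3, 23.8 and 21.4 in Setd5+/-, from 103 and 55 reads in all. The values did not overlap, but the interval was wide (log2 −0.37, 95% counting interval −0.996 to 0.264). Per kb of transcript the ratio of Hadhb to Hadha was 0.0162 in WT and 0.0153 in Setd5+/-. As background, the mature complex holds as many alpha as beta subunits.

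Counts on an intronless copy of Hadhb, the processed pseudogene Gm13910 on chr2:108948806-108950233, were much higher. They were 1041, 1089.6 and 1079 normalized counts in WT and 844, 842 and 864 in Setd5+/- (log2 −0.33, 95% counting interval −0.44 to −0.23). The 1428 bases of the copy matched the Hadhb transcript at 99.8%, with 3 substitutions and no gap, and the longest run of identical bases was 685. Substitutions are written with the base of Hadhb, its position counted from 1 at the first base of the transcript, and the base of the copy. They are G320A, A512G and G862A, and the windows around 2 of them are shown with the base that differs in capitals, because within the matched stretch only these bases differ between the gene and the copy. The matched stretch runs from base 120 to base 1547 of the 2048 bases of the Hadhb transcript, and the bases on either side of it are not part of the copy.
Hadhb at A512G: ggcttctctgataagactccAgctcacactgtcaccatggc
Gm13910 at A512G: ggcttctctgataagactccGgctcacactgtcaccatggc
Hadhb at G862A: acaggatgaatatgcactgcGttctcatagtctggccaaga
Gm13910 at G862A: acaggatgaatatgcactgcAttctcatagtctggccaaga

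The stretch matched by the copy spans 14 of the 15 exon junctions of the Hadhb transcript. The middle junction is shown with the second exon in capitals, and the same 40 bases stand unbroken in the copy.
Hadhb across a junction: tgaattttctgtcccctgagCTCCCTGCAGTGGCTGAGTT
A read across such a junction matches the copy without a gap, and Bowtie2, which the authors used, aligns reads without splitting them at introns. Of the reads on the pair, 2.59% (exact 95% interval 2.12 to 3.13) lay on Hadhb in WT and 2.51% (1.89 to 3.25) in Setd5+/-, intervals that cover counting error only. These exact intervals take each read as independent, without the spread within a genotype used for the other intervals, and so are too narrow. The intervals of the libraries overlapped. Summed over gene and copy there were 1065, 1117 and 1113 normalized counts in WT and 864, 866 and 885 in Setd5+/- (log2 −0.33, 95% counting interval −0.44 to −0.23). The log2 ratio of Gm13910 minus that of Hadha was −0.04 (95% counting interval −0.16 to 0.08). Which of the reads on the copy came from Hadhb cannot be told apart. A further copy, Gm9108 on chromosome 15, is 97.6% identical and is not listed by that name in the table analysed here.

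**Figure D3:**
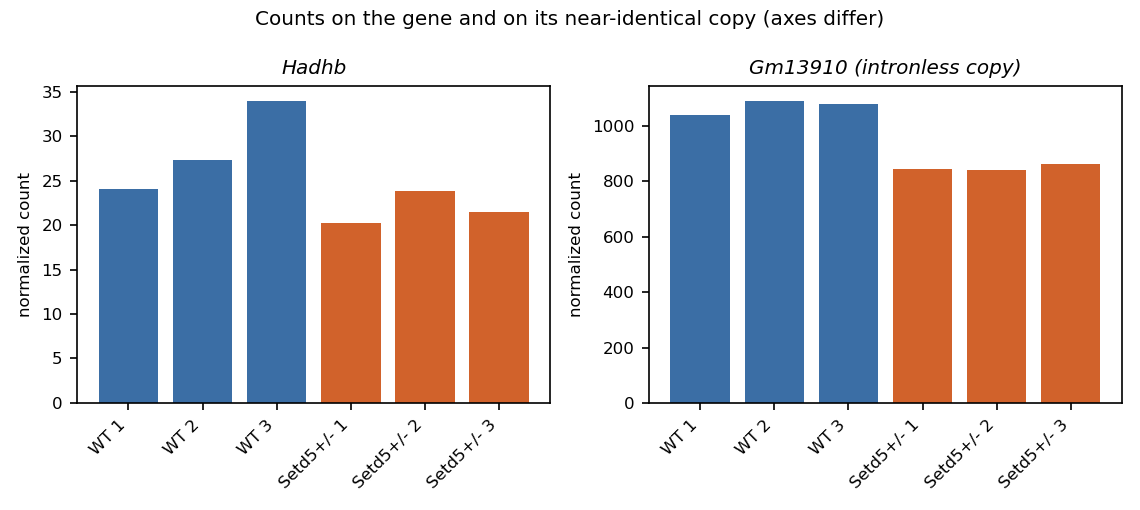
Normalized counts (y axes, from 0, with different scales) on Hadhb (left) and on its intronless copy Gm13910 (right) in the 3 WT (blue) and 3 Setd5+/- (orange) samples. Hadhb stays at or below 34.0 and Gm13910 at or above 842 in all samples, and the mutant bars are lower in both panels.

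Hadh encodes the soluble matrix hydroxyacyl-CoA dehydrogenase for medium and short chains and lies on chr3:131233419-131272101 on the minus strand. It had 915, 876 and 973 normalized counts in WT and 719.9, 737 and 767 in Setd5+/-, lower by 19.5% with no overlap (log2 −0.31, 95% counting interval −0.43 to −0.20). Its log2 ratio was near that of Hadha, with a difference (Hadha minus Hadh) of 0.02 and an interval of −0.10 to 0.15.

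The members did not share a single shift. Of the 45 pairs of genes, 30 had log2 ratios whose difference had an interval that left out 0, and 21 of 36 pairs did so without Cpt1c. The share over pairs of all tested genes was not computed, so these counts do not set the members apart from other genes. They also depend on depth, and the intervals of pairs with Hadhb were wide. Hadha, Hadh and Acadm formed the group of small differences, between −0.29 and −0.32, and none of their 3 pairs differed by more than the interval. Cpt1a and Slc25a20 were at −0.48 and −0.49, and differed from each other by 0.01 with an interval of −0.15 to 0.17. They were not set apart from all of the first group, since the interval held 0 for Cpt1a minus Acadm (−0.34 to 0.03), Slc25a20 minus Acadm (−0.39 to 0.06) and Slc25a20 minus Hadh (−0.36 to 0.01). Acadl and Acadvl stood below them, and each differed from Cpt1a, by 0.22 (0.14 to 0.30) and 0.36 (0.23 to 0.48).

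Per kb of transcript, Acadl had the highest level of the members in both libraries, at 2937 normalized counts per kb in WT and 1811 in Setd5+/-. In WT it was followed by Hadha (855), Cpt1a (651), Acadvl (647), Hadh (515), Slc25a20 (345), Acadm (195), Cpt1c (191), Cpt2 (105) and Hadhb (13.9). Neighbours whose counting intervals overlapped were Cpt1a with Acadvl and Acadm with Cpt1c. In Setd5+/- the order was Acadl, Hadha (699), Cpt1a (468), Hadh (414), Acadvl (363), Cpt1c (338), Slc25a20 (246), Acadm (156), Cpt2 (109) and Hadhb (10.7), and only Acadvl and Cpt1c overlapped. Acadvl thus passed below Hadh and Cpt1c passed above Slc25a20. The sum over the 10 genes per kb was 6512, 6452 and 6405 in WT and 4718, 4568 and 4562 in Setd5+/-, lower by 28.5%. Acadl made 45.5% of this sum in WT and 39.2% in Setd5+/-, Acadvl 10.0% and 7.86%, and Cpt1c 2.97% and 7.33%, while Cpt1a held 10.1% in both. The lengths are those of 1 annotated transcript a gene, and the level of Hadhb leaves out the reads on its copy. As reads were not split at introns, those across exon junctions can be lost, and members differ in exon number. Acadvl has 20 exons in 2168 bases of transcript and Cpt2 has 5 in 2372. This loss was not measured, so ranks and shares between genes are rough.

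**Figure D4:**
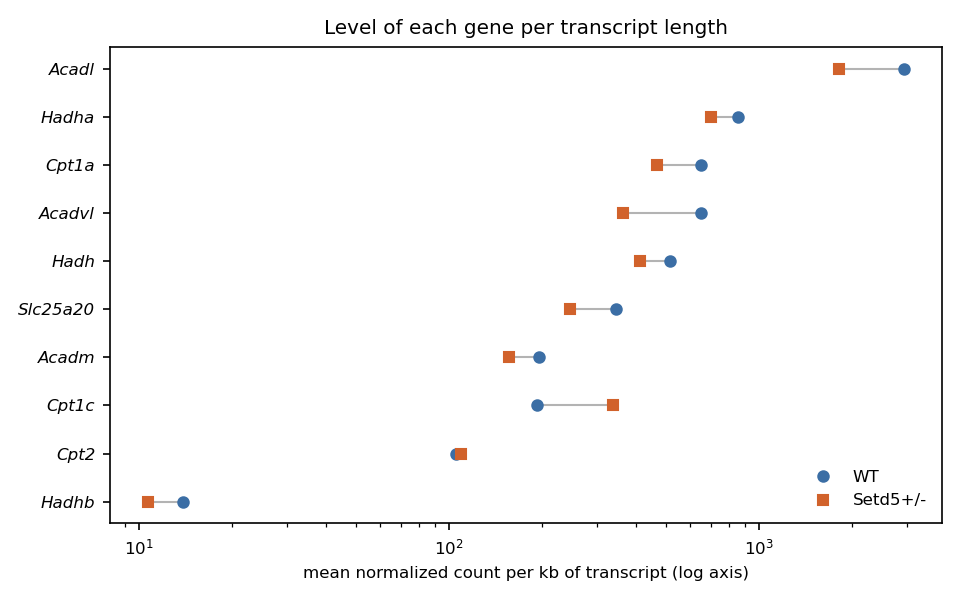
Mean normalized count per kb of transcript (x axis, log scale) of each gene in WT (blue circles) and Setd5+/- (orange squares). Acadl is at the top with 2937 and 1811, Cpt1c moves from 191 to 338, and Hadhb lies far below the rest.

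Other genes of fatty acid oxidation and of related acyl-CoA routes were taken from lists chosen by role. Some act in amino acid breakdown, such as Gcdh and Hibch. Of 96 listed symbols 93 were found and 82 passed the filter on low values. Mut was found, and its other symbol Mmut, also listed, was not. Past 1.5-fold 15 were lower, 12 higher and 55 neither, with a median log2 ratio of −0.13, against 14.8% and 18.8% of all genes tested. These shares are near the background, and with upper quartile scaling 19 were lower and 8 higher. The counts differed between lists.

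In the list of uptake and activation, 2 of 12 tested genes were lower and 3 higher (median 0.10). Fabp5, a fatty acid binding protein of the cytosol, had 284, 361 and 333 normalized counts in WT and 54.8, 42.9 and 65.5 in Setd5+/- (log2 −2.56, 95% counting interval −2.91 to −2.21). Acsl3, a long-chain acyl-CoA synthetase of the endoplasmic reticulum and lipid droplets, had 1038, 1042 and 1051 in WT and 2632, 2608 and 2624 in Setd5+/- (log2 1.33, 1.247 to 1.408), and it lies on chromosome 1, whose median was high. The list had its largest differences outside the mitochondrion.

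In the carnitine system besides the members, 1 of 6 was lower and 1 higher (median 0.07). Crot, the peroxisomal carnitine octanoyltransferase, was lower, with means of 1102 and 583 normalized counts (log2 −0.92, 95% counting interval −1.04 to −0.80), and Cpt1b, given above, was higher. Among the other acyl-CoA dehydrogenases 1 of 9 was lower and 2 were higher (median −0.25). Gcdh, the glutaryl-CoA dehydrogenase of lysine and tryptophan breakdown, was lower, with 209 and 126 (log2 −0.73, −0.99 to −0.47), and Acad10 was higher at a low level, with 52.7 and 98.9 (log2 0.89, 0.52 to 1.27).

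In the list of hydratases, thiolases and auxiliary enzymes 4 of 15 were lower and 2 higher (median −0.18). Acat1, the mitochondrial acetoacetyl-CoA thiolase, had 1639, 1811 and 1788 normalized counts in WT and 635, 614 and 696 in Setd5+/- (log2 −1.43, 95% counting interval −1.54 to −1.32), a larger difference than in any of the 10 members. Hibch, an enzyme of valine breakdown on chromosome 1, was higher, with means of 159 and 255 (log2 0.67, 0.45 to 0.90). In the electron transfer flavoprotein list, which takes electrons from the acyl-CoA dehydrogenases, 2 of 7 were lower and none higher (median −0.29). Etfb, its beta subunit, had 929.6, 819 and 817 normalized counts in WT and 445, 442 and 468 in Setd5+/- (log2 −0.92, −1.06 to −0.78). The summed level of this list ranged from 3182 to 3372 in WT and from 2090.0 to 2235 in Setd5+/-.

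In peroxisomal beta-oxidation, which shortens very long chains, 1 of 13 was lower and 3 were higher (median −0.06). Abcd2, a peroxisomal transporter of very long chains, had means of 205 and 404 normalized counts (log2 0.97, 95% counting interval 0.78 to 1.16). Among genes of malonyl-CoA and transcriptional regulators 3 of 12 were lower and 1 higher (median −0.21). Esrra, an orphan nuclear receptor that acts on mitochondrial genes, had 476, 503 and 480.3 in WT and 212, 237 and 250.2 in Setd5+/- (log2 −1.06, −1.24 to −0.87). Rxra, the partner of the PPAR receptors, had 114, 160.5 and 143 in WT and 299, 316 and 345 in Setd5+/- (log2 1.196, 0.97 to 1.42). In the ketone body and thioesterase list 1 of 8 was lower and none higher (median −0.11). That gene was Bdh1, the hydroxybutyrate dehydrogenase, with 770.4, 794 and 841 normalized counts in WT and 226, 274 and 207 in Setd5+/- (log2 −1.76, −1.94 to −1.59).

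**Figure D5:**
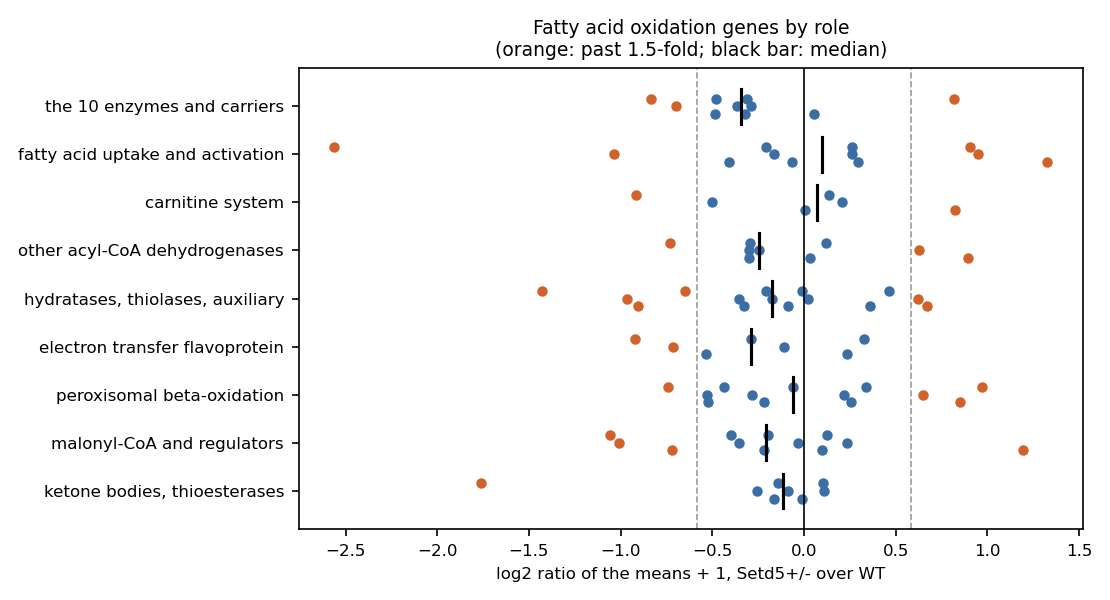
Log2 ratio of the mean normalized counts + 1, Setd5+/- over WT (x axis), of each tested gene of the 10 members and of the 8 other lists (rows), with genes past 1.5-fold in orange, the 1.5-fold limits as dashed lines and the median of each row as a black bar. The members have their median at −0.34, the other rows have theirs between −0.29 and 0.10, and Fabp5 is the point farthest to the left.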

How the data were processed

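RNA from the cells was made into TruSeq RNA v2 libraries, a kit that does not mark strand, and sequenced from both ends. Per the labels and the study's methods, the authors trimmed reads with Trimmomatic, aligned them to mm10 with Bowtie2 and used DESeq2. The program that counted reads is not given in the sources used here. The authors deposited normalized counts per gene and sample, that is, counts divided by DESeq2 size factors, with the points of the decimals lost or moved. Depth and grouping are given in the report. The same table holds the authors' own comparison (fold changes, p-values), which was not used.

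The points were restored by finding the value of 1 read in each sample (0.827 to 0.829 normalized counts in WT, 1.19 in Setd5+/-) and placing each point where the value became whole reads, within 0.002 reads. Where the first places tried did not give the deposited mean (1116 genes), places that did were chosen. For 1101 of these genes several choices fitted, and the least shifted was kept. The deposited mean thus equalled the mean of the restored values in all 52438 genes with values. As its own point could also be moved to fit, this match does not check a common shift of all points. No value was found for 672 of 53110 listed genes. The procedure recovered 100% of 314628 values in a test on simulated data.

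Log2 ratios were taken of the mean normalized count + 1. The interval takes as variance the spread of reads within a genotype. Genes were called past 1.5-fold where the interval also left out 0. limma 3.58.1 in R 4.3.3 (lmFit, eBayes with trend) on log2(normalized count + 1), with Benjamini-Hochberg adjustment over 16266 genes, compares the reads of 2 libraries. Python 3.11.15 and Biopython 1.88 (local alignment of transcripts) were used. Positions and transcript lengths are from GENCODE vM21 (GRCm38, the same build as mm10), with 1 principal transcript a gene, and promoter windows from RefSeq. The members and lists were chosen with earlier results of these data known. In each other list, the gene with the largest rise and the one with the largest fall past 1.5-fold were named, except 1 gene that is not reported here. Alternatives covered scaling, pseudocount, filter, fold limit, the replicate block and leaving out each sample.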

Additional observations from a re-analysis of the deposited data

How the results depend on the processing

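Of 120 values of the 10 genes under 12 other settings, 116 kept their direction and their side of the 1.5-fold limit. This count says little by itself. Leaving out a sample only thins the reads of 1 library, and the filter does not enter the value of a member. Cpt2 changed sign with upper quartile scaling (−0.052), and over the settings that leave out 1 sample its value ranged from −0.093 (second Setd5+/- sample) to 0.19 (first Setd5+/- sample), with −0.0089 without the third WT sample, each negative value with an interval that held 0, and Slc25a20 came past 1.5-fold with upper quartile scaling (−0.59). Upper quartile scaling moved the median log2 ratio of all tested genes from −0.02 to −0.12, so that Cpt2 stayed above that median, and turned the calls of all genes from 2400 lower and 3061 higher to 3061 lower and 2574 higher, and those of the other fatty acid genes from 15 and 12 to 19 and 8. With calls at 2-fold, 0 members were lower and 0 higher, against 998 and 1668 of all genes and 6 and 2 of the other fatty acid genes. With calls at a lower limit of 0.32 on the log2 scale, 4 members, 4091 of all genes and 24 of the other fatty acid genes were lower. These counts follow from the limit itself. With the replicate number as a block, limma called 7 members lower and 1 higher, as without it. The samples share only a number, since the deviations of same-numbered samples had correlations of 0.0049, 0.0015 and −0.0071. The same counts came with a pseudocount of 5, without a filter and with each sample left out. The tests of edgeR and DESeq2 were not run, since the reads used here were restored from damaged normalized counts and are not counts as the authors gave them. The limit of the data is 1 library per genotype, which depth does not change. For Hadhb, with 103 and 55 reads, depth is also a limit.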
